A study of Mus musculus with 8 samples.

Results

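Cholesterol synthesis, uptake and efflux were described with 35 member genes, chosen by name: 19 synthesis enzymes, 7 genes of sterol sensing and its transcription factors, Apoe and its receptor Lrp1, the efflux pumps Abca1 and Abcg1, 4 genes of sterol storage and intracellular transport, and Cyp46a1, which starts sterol turnover in neurons. All 35 were among the 26711 features measured. The data were single-nucleus RNA-seq of mouse primary visual cortex (V1) at postnatal day 21, with 8 libraries and 102330 nuclei in 20 deposited cell types. Every animal carried floxed alleles of the glucocorticoid receptor gene (GRfl/fl) and received an AAV2/5 vector with the astrocyte promoter GfaABC1D at birth. In GR-KO animals the vector encoded Cre together with EGFP-CAAX, a membrane-bound green fluorescent protein, and in GR-Con animals the inactive ΔCre stood in place of Cre. Animals of both genotypes were reared in a normal light cycle (NR) or in constant darkness (DR), and each of the 4 groups (GR-Con and GR-KO in NR, and both again in DR) held 1 male and 1 female library. The nuclei were sorted as DRAQ5-positive and GFP-negative events before droplet capture. Cre was placed under an astrocyte promoter, and the genotype names below describe the animal, so that astrocytes were the intended target in GR-KO animals and neurons and oligodendrocytes were not.

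Cells make cholesterol from acetyl-CoA through mevalonate, farnesyl diphosphate, squalene and lanosterol, and the genes of this route are switched on together by the sterol-sensing transcription factor SREBP2 when membranes hold little sterol. The brain makes its own cholesterol, since lipoproteins of the blood do not cross into it: oligodendrocytes use it to build myelin, and astrocytes load it onto ApoE particles through ABCA1 for uptake by neurons. When sterol is plentiful, oxysterols activate the liver X receptors, which raise efflux genes such as Abca1 and Abcg1.

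Libraries held 9517 to 15161 nuclei and 168632129 to 288774016 UMIs. Of 101098 barcode sequences, 1220 occurred in more than 1 library. All 40 marker genes checked were highest in the cell type they define, where for neuron markers any neuron type counted. The authors named cell types from known marker genes, so this outcome was largely fixed in advance. Astrocytes gave 924 to 1794 nuclei and 5462791 to 11585703 UMIs per library, and oligodendrocytes 492 to 814 nuclei and 4954095 to 9089734 UMIs. Values below are CPM: the UMIs of a gene summed over the nuclei of a cell type in 1 library, scaled to a total of 1000000 UMIs of that type. Pairs of values give the male library first and the female library second. Cre UMIs in astrocytes were 0 in all 4 GR-Con libraries, and 86 and 48 in NR GR-KO (10.2 and 4.14 CPM) and 57 and 43 in DR GR-KO (10.4 and 5.98 CPM). Excitatory neurons of these animals also held Cre UMIs, 840 and 160 in NR GR-KO (3.70 and 0.745 CPM) and 109 and 200 in DR GR-KO (0.795 and 1.21 CPM), against 0 in GR-Con, while oligodendrocytes held 0 to 3. The part of these neuron UMIs in the genotype results was not tested. Nr3c1, the receptor gene, was counted per gene and not per exon, so the loss of the floxed exon was not examined. Its astrocyte CPM was 207 to 263 in GR-Con and 268 to 284 in GR-KO libraries.

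The levels of the members were first compared across the 20 cell types. Oligodendrocytes had the highest mean CPM over the 8 libraries for 17 of 35 members and astrocytes for 9, where 7.9% and 8.97% of all genes had their highest mean in these types. Microglia were highest for 6 members and for 25.7% of all genes. Endothelial cells, smooth muscle cells with pericytes, and Sst interneurons were each highest for 1 member. Rare types held few nuclei in some libraries, down to 2 for microglia, 1 for smooth muscle cells with pericytes, 5 for endothelial cells and 3 for vascular leptomeningeal cells. Chandelier cells held 5 to 14 nuclei per library, with under 10 in 5 of 8 libraries. Microglia had under 10 in the NR GR-Con male, NR GR-KO male and DR GR-Con female libraries. From libraries with at least 10 nuclei of a type, a rule added after the data were seen, oligodendrocytes led for 17 members, astrocytes for 8 and microglia for 7 (7.67%, 8.38% and 25.8% of all genes), and the one that changed was Nr1h2, the liver X receptor beta gene. Among the 19 synthesis enzymes, 15 were highest in oligodendrocytes, 3 in astrocytes (Tm7sf2, Msmo1 and Dhcr7) and 1 in microglia (Ggps1, which makes geranylgeranyl diphosphate on a side branch).

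Hmgcs1, which makes the HMG-CoA at the head of the route, had a mean CPM of 153 ± 37.0 (SD, n = 8 libraries) in oligodendrocytes and 88.7 ± 45.2 in astrocytes. Every other type lay at 26.7 or below, down to 12.4 in L5PT neurons. Lss, which closes squalene oxide to lanosterol, was at 59.1 ± 12.7 in oligodendrocytes and 27.4 in astrocytes, the next type. For Mvd, the mevalonate diphosphate decarboxylase, both glial types were close: the means were 17.6 in oligodendrocytes and 16.8 in astrocytes, and oligodendrocytes were higher in 5 of 8 libraries. The order of oligodendrocytes and astrocytes was as even for Fdft1 (squalene synthase), Nsdhl (a sterol dehydrogenase) and Dhcr7 (the reductase of the last step), each of which was higher in the leading type in 4 of 8 libraries.

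Of the regulators, Srebf1 was highest in astrocytes at 29.6 ± 3.35 CPM, against 13.3 in oligodendrocytes, and astrocytes led in all 8 libraries. Srebf2, which encodes SREBP2, did not separate these types, with means of 127 in astrocytes and 126 in oligodendrocytes, and fell to 15.2 in Pvalb interneurons. Insig1, which holds the SREBP precursor in the endoplasmic reticulum and is itself an SREBP target, was at 80.4 ± 30.6 in astrocytes and 71.9 in oligodendrocytes. Nr1h3, the liver X receptor alpha gene, was highest in smooth muscle cells and pericytes at 27.5 ± 18.1, or 32.8 ± 16.4 over the 6 libraries with at least 10 such nuclei.

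Carriers and pumps had another order. Apoe was highest in astrocytes at 179.9 ± 39.6 CPM, with vascular leptomeningeal cells next at 82.7, oligodendrocytes at 18.5 and L6b neurons last at 5.56. Over libraries with at least 10 nuclei of the type the leptomeningeal value was 68.4 ± 34.7 (n = 7). Lrp1, the large endocytic receptor for ApoE particles, was highest in microglia at 489 ± 95.1 (493 ± 30.8 in the 5 libraries with at least 10 microglia) and lowest of the 20 types in oligodendrocytes at 26.1. Abca1 was at 650.2 ± 243 in microglia (683 ± 165 in those 5), 324 ± 69.4 in astrocytes and 49.9 in oligodendrocytes, and under 7 in most excitatory types. Abcg1 was at 102 in microglia (90.1 ± 11.3 in those 5) and 56.7 in oligodendrocytes, and astrocytes were the lowest type at 2.95.

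Soat1, which esterifies cholesterol for storage, was an astrocyte gene at 155 ± 12.5 CPM, with microglia next at 69.2. Npc1 and Npc2 hand sterol out of the lysosome. Npc1 was highest in oligodendrocytes at 113.5 ± 8.31 and precursor cells at 107, and Npc2 in microglia at 49.5. Stard4, a cytosolic sterol carrier and SREBP target, was highest in endothelial cells at 28.4, before oligodendrocytes at 19.8 and astrocytes at 15.1. Cyp46a1, the hydroxylase that lets neurons export cholesterol, ran from 44.3 ± 2.93 in Sst interneurons to 6.93 in oligodendrocytes, and the Sst, Lamp5, Pvalb and L2/3 neurons, at 40.7 to 44.3, differed by less than the spread of L2/3 (SD 4.91).

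**Figure D1:**
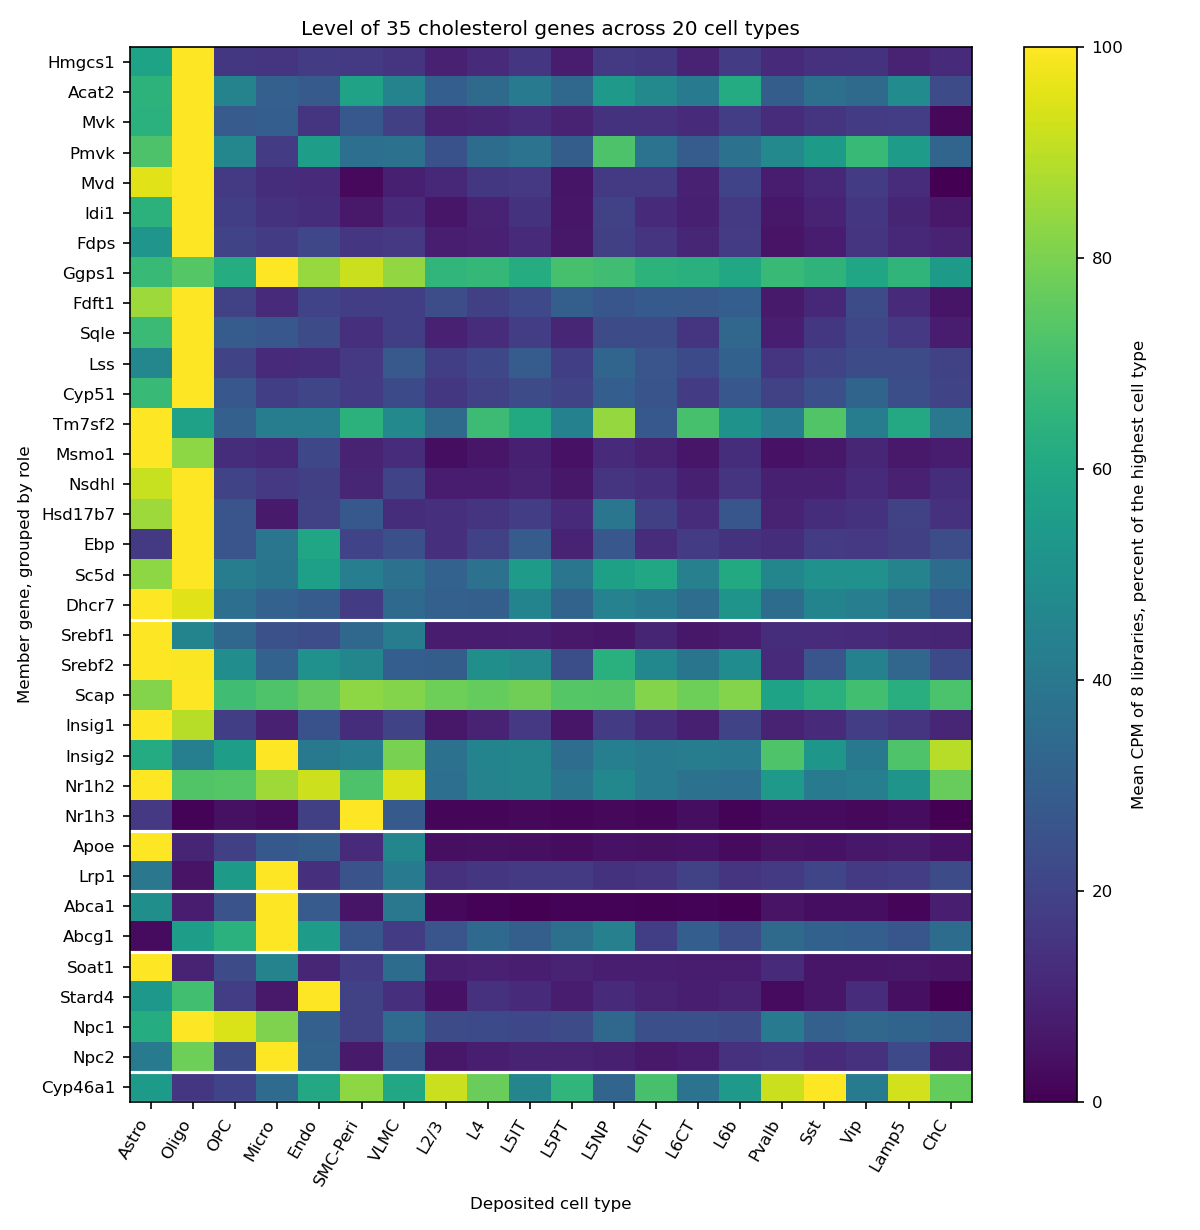
Mean CPM of the 35 members over 8 libraries in each of the 20 cell types (columns), as a percent of the mean in the member's highest type (colour, linear), with members grouped by role (rows). Colours compare types within a member and not members with each other. The synthesis enzymes other than Ggps1 were brightest in the oligodendrocyte or astrocyte column, Ggps1, Abca1 and Lrp1 in microglia, and Abcg1 was darkest in astrocytes.

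Cell classes were tested within libraries, with a member called at an adjusted p under 0.05 and at least a 2-fold difference. Oligodendrocytes were higher than astrocytes for 6 members and lower for 7, beside 34.9% of all genes called. Higher were Abcg1 (log2 fold change 4.33, SE 0.17), Ebp (2.68, SE 0.13), Lss (1.30, SE 0.15), Fdps (1.16, SE 0.21), Hmgcs1 (1.05, SE 0.24) and Npc2 (1.05, SE 0.11). Lower were Nr1h3, with 0 UMIs in 3 of 8 oligodendrocyte sums (-4.12, SE 0.35), Soat1 (-3.18, SE 0.07), Apoe (-3.15, SE 0.11), Lrp1 (-2.81, SE 0.13), Abca1 (-2.64, SE 0.11), Cyp46a1 (-1.67, SE 0.09) and Srebf1 (-1.01, SE 0.08). The median log2 fold change was 0.61 over the synthesis enzymes, 0.41 over the members and -0.04 over all genes. Counted as UMIs per nucleus, 13 members were higher and 6 lower (37.3% of all genes called), as oligodendrocyte nuclei held more UMIs and the median of all genes moved to 0.36.

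Astrocytes were higher than excitatory neurons for 22 members and lower for Abcg1 (-3.64, SE 0.15), beside 47.8% of all genes called. The largest differences were those of Abca1 (4.96, SE 0.12), Apoe (4.27, SE 0.14) and Msmo1 (3.70, SE 0.13), a sterol methyl oxidase. Oligodendrocytes were higher than excitatory neurons for 25 members and lower for Cyp46a1 (-2.44, SE 0.09), Lrp1 (-1.88, SE 0.09) and Nr1h3 (-1.49, SE 0.47), beside 48.4% of all genes called. Of the synthesis enzymes, 17 of 19 were higher in oligodendrocytes, among them Nsdhl (3.29, SE 0.10), Idi1 (3.23, SE 0.11) and Hmgcs1 (2.90, SE 0.06). Inhibitory and excitatory neurons differed at 2 members, Abca1 (1.55, SE 0.12) and Fdft1 (-1.20, SE 0.04), where 24.6% of all genes were called. Neuron nuclei held more UMIs than glial nuclei, and as UMIs per nucleus 10 members were higher and 6 lower in astrocytes than in excitatory neurons (16 and 6 in oligodendrocytes), beside 76.0% and 63.5% of all genes called, with the median of all genes at -1.45 and -1.09. On that scale Lrp1 and Srebf2 were lower in astrocytes than in excitatory neurons, at -0.43 and -0.37.

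**Figure D2:**
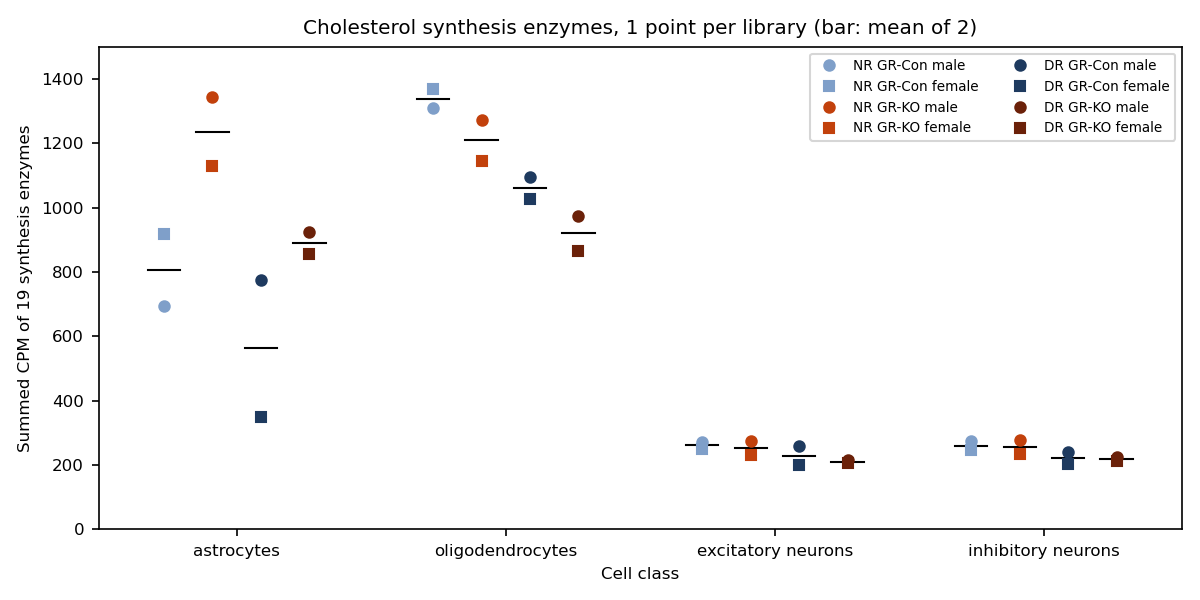
Summed CPM of the 19 synthesis enzymes (y axis, linear) in 4 cell classes (x axis, glia at the left and neurons at the right), with 1 point per library, circles for males, squares for females, colours for the 4 groups and a bar at the mean of 2. Astrocyte sums ran from 350.2 in the DR GR-Con female library to 1343 in the NR GR-KO male library, and oligodendrocyte sums from 865 to 1370.

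The sum of the 19 synthesis enzymes in astrocytes was 695 and 919 CPM in NR GR-Con, 1343 and 1130 in NR GR-KO, 774 and 350.2 in DR GR-Con and 924 and 856 in DR GR-KO. Both NR GR-KO libraries lay above the other 6, and the DR GR-Con female library lay far below. In oligodendrocytes the sum was 1309 and 1370 in NR GR-Con, 1274 and 1145 in NR GR-KO, 1096 and 1027 in DR GR-Con and 975 and 865 in DR GR-KO, so that all 4 DR libraries lay below all 4 NR libraries. The neuron sums were 199 to 278 in both neuron classes.

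The effect of the astrocyte knockout was then asked in NR animals. In NR GR-KO astrocytes, 9 of 35 members rose over NR GR-Con and 0 fell, beside 7.11% of all genes called (3.73% higher). They were 8 of the 19 synthesis enzymes, spread from the head of the route to its last step, and the sterol carrier Stard4. Acat2, Fdft1, Sqle, Lss and Cyp51 were among the enzymes not called. The genes of sterol loading, uptake and efflux were not called: the log2 fold change was 0.05 for Apoe, 0.09 for Abca1 and -0.13 for Lrp1. The median was 0.62 over the synthesis enzymes, 0.31 over the members and 0.00 over all genes.

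Hmgcs1 had 58.1 and 71.4 CPM in the NR GR-Con libraries and 169.6 and 114 in NR GR-KO, a log2 fold change of 1.07 (SE 0.21, adjusted p = 2.4e-05). Mvd, which forms the isopentenyl unit, had 11.8 and 13.7 CPM and 28.6 and 28.1, respectively (log2 fold change 1.09 with SE 0.18, adjusted p = 1.3e-07). Both genes were higher in each NR GR-KO library than in either control, with no overlap. Fdps, the farnesyl diphosphate synthase, went from 18.8 and 23 CPM to 49.9 and 36.9 (log2 fold change 0.99 with SE 0.20, adjusted p = 5.9e-05). Idi1, the isopentenyl diphosphate isomerase, went from 29.0 and 36.0 to 79.2 and 50.1 (log2 fold change 0.92 with SE 0.22, adjusted p = 0.0012). The male NR GR-KO library was the higher of the pair for these enzymes and the groups stayed apart. Mvk, the mevalonate kinase, had 13.4 and 19.1 CPM in NR GR-Con and 26.4 and 26.8 in NR GR-KO (log2 fold change 0.65 with SE 0.20, adjusted p = 0.024).

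Past lanosterol, Tm7sf2 (a sterol reductase) had 11.1 and 16.1 CPM in NR GR-Con and 24.7 and 28.3 in NR GR-KO (log2 fold change 0.90 with SE 0.22, adjusted p = 0.00087). Hsd17b7, which reduces the sterol ketone, had 24.2 and 25.2 and 55.2 and 35.3 (log2 fold change 0.80 with SE 0.22, adjusted p = 0.0071). Dhcr7 had 19.7 and 22.7 and 40.7 and 29.4 (log2 fold change 0.65 with SE 0.20, adjusted p = 0.024). All of these were higher in both NR GR-KO libraries. Stard4 went from 10.6 and 13.7 to 26.3 and 19.8 CPM (log2 fold change 0.85 with SE 0.22, adjusted p = 0.0025).

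Most members of the same route did not pass the threshold, and some of these are given here. Sqle, the squalene epoxidase, had 43.5 and 47.2 CPM in NR GR-Con and 88.1 and 56.0 in NR GR-KO (log2 fold change 0.60 with SE 0.21, adjusted p = 0.06). Insig1 had 60.4 and 89.8 and 124 and 103 (log2 fold change 0.53 with SE 0.21, adjusted p = 0.11), and Srebf2 111 and 128 and 142 and 139 (log2 fold change 0.17 with SE 0.15, adjusted p = 0.69). Cyp51, the lanosterol demethylase, lay just past the threshold, at a log2 fold change of 0.62 (SE 0.21, adjusted p = 0.05), which is above the threshold before rounding. Apoe had 170.1 and 165 CPM in NR GR-Con and 179 and 184 in NR GR-KO, Abca1 286 and 246 and 314 and 280.3, Lrp1 228 and 178 and 212 and 176, and Cyp46a1 24.2 and 22.0 and 28.0 and 27.6. Of these 4, the Abca1 and Lrp1 values of the groups overlapped. In all, 15 of 19 synthesis enzymes were higher in both NR GR-KO libraries than in both controls, as were 31.3% of all genes.

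**Figure D3:**
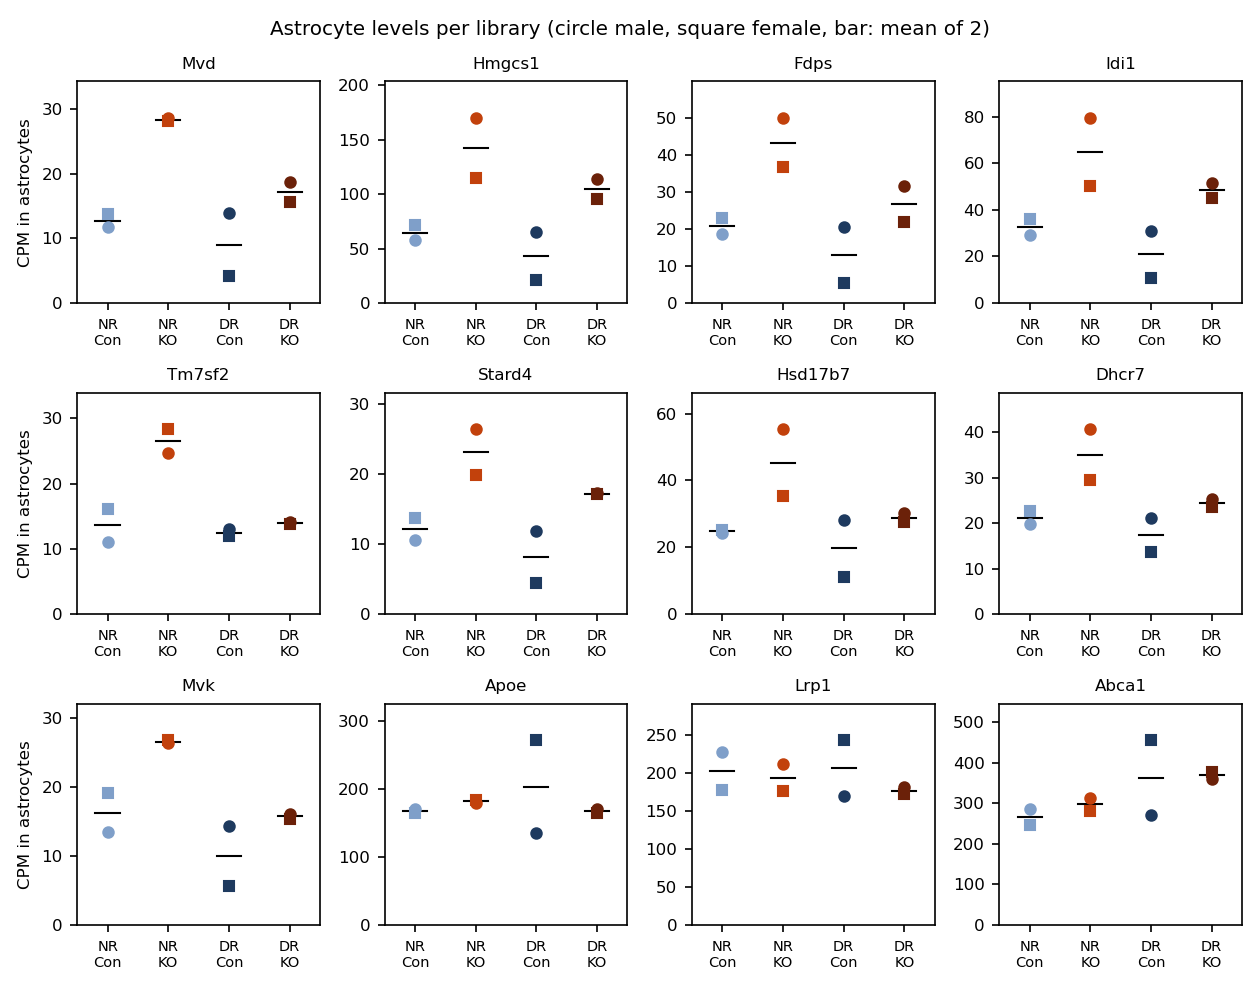
Astrocyte CPM (y axis, linear, own range per panel) of the 9 members called in NR and of Apoe, Lrp1 and Abca1 in the 4 groups (x axis), with 1 point per library, circles for males, squares for females and a bar at the mean of 2. Hmgcs1 was at 58.1 to 71.4 in NR GR-Con and 114.5 to 169.6 in NR GR-KO, and the DR GR-Con female library was the lowest point for Stard4 and for every enzyme shown except Tm7sf2, and the highest for Apoe, Lrp1 and Abca1.

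The NR comparison rested on 2 libraries a group and moved with the fit. The count of 9 became 3 without the NR GR-Con male library and 5 without the NR GR-KO male library, 17 with sex as a term and 1 with all 4 groups in one fit, and Mvd, Hmgcs1 and Fdps were called in all 4 leave-one-out fits. By the quasi-likelihood test the count was 6 (5.15% of all genes) and by DESeq2 8. Astrocytes of NR GR-KO were also the most deeply counted, with a median of 8662 and 12123.5 UMIs per nucleus against 6267 and 5586.5 in NR GR-Con. The summed CPM of 8 astrocyte markers in astrocytes was 15180 and 14390 in NR GR-Con and 12030 and 12360 in NR GR-KO, without overlap. Slc1a2 alone was at 10550 and 10080 in NR GR-Con and 8124 and 8410 in NR GR-KO. Slc1a3, Aldh1l1, Atp1b2, Ndrg2 and Acsbg1 were also lower in both NR GR-KO libraries, while Gja1 overlapped. Aqp4 was higher, at 116 and 95.3 in NR GR-Con and 181.5 and 173.7 in NR GR-KO. The summed CPM of 8 neuron markers in astrocytes was 457 and 376 in NR GR-Con and 633 and 652 in NR GR-KO, against 7148 to 7620 in excitatory neurons. That of 8 oligodendrocyte markers was 150.2 and 128 and 214 and 168, against 17290 to 20880 in oligodendrocytes. Of 3 oligodendrocyte precursor markers, Vcan was at 25.6 and 26.7 in NR GR-Con and 70.4 and 88.9 CPM in NR GR-KO, while Pdgfra and Cspg4 stayed at 3.97 or below in all 8 libraries. The paper lists Vcan among the genes that rose in V1 astrocytes after loss of GR. Hmgcs1 itself was at 10.6 to 22.8 CPM in excitatory neurons. The part of these cells and of depth in the result was not tested.

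The 5′ regions of the members were read from RefSeq windows (build GRCm38.p6), which matched 29 of 35 members with 40 windows. In 32 of these windows the first transcribed bases were found in a GENCODE transcript of the gene. In the 250 bases before the start of transcription, both strands were searched for CCAAT (the NF-Y motif), GGGCGG (a GC box) and TCACNCCA (a sterol regulatory element core), whose last letters can also begin a CCAAT. At least 1 CCAAT was found for 15 of 16 synthesis enzymes with a window (93.8%) and 22 of 29 members (75.9%), against 40.4% of 10868 genes tested in astrocytes and 33.8% of all 32851 windows. GGGCGG was found for 14 of 16 synthesis enzymes (87.5%), against 62.4% of the genes tested in astrocytes. TCACNCCA was found for Hmgcs1, Msmo1, Srebf2 and Apoe, 13.8% of the members against 3.97%. CACGTG was searched as well. It was found for 6 of 29 members (20.7%) and 3 of 16 synthesis enzymes (18.8%), against 9.74% of the genes tested in astrocytes. Such a match is a run of letters and not evidence of binding.

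The windows of Hmgcs1 and Mvd, the enzymes with the largest NR differences, are printed because they hold several of these motifs, a choice made after the values were seen. Hmgcs1 lies at chr13:119690379-119708260 on the plus strand and its window at chr13:119690101-119690350, which ends short of this annotated start and did not pass that transcript check. Mvd lies at chr8:122433601-122443422 on the minus strand and its window at chr8:122443423-122443672, which passed. Each is written 5′ to 3′ on the strand of the gene, and capitals mark the letters that match any of the 3 motifs, on either strand.
Hmgcs1: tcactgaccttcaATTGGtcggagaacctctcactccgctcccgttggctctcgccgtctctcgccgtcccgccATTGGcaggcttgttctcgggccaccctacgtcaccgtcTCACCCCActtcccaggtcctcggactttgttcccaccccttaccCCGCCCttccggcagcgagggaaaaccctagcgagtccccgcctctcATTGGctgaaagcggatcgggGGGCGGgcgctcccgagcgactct
Mvd: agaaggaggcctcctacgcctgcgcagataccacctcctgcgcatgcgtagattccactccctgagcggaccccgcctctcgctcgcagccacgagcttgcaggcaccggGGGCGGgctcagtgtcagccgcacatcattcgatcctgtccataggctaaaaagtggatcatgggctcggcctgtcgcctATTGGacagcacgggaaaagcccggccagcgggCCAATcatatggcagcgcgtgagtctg
Hmgcs1 had 3 CCAAT, 2 GGGCGG and 1 TCACNCCA match, and Mvd had 2 CCAAT and 1 GGGCGG match.

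In DR animals the same contrast gave 0 called members, with 0.736% of all genes called, 4 members at an unadjusted p under 0.05 and 0 by edgeR's quasi-likelihood test or DESeq2. With sex as a term 3 were called. The estimates were of similar size and far less certain. Hmgcs1 had 65.0 and 21.1 CPM in DR GR-Con and 114 and 96.0 in DR GR-KO, a log2 fold change of 1.29 (SE 0.49, adjusted p = 0.36). The synthesis median was 0.56, with 18 of 19 positive, and 12 of 19 were higher in both DR GR-KO libraries than in both controls, against 16.3% of all genes. NR and DR share no library, and 18 of 19 synthesis enzymes had the same sign in both (17 of them positive), as had 58.5% of all genes. A test of the interaction of genotype and rearing called 0 members in astrocytes and 0 in oligodendrocytes, where 0.386% and 0.451% of all genes were called, with 1 member at an unadjusted p under 0.05 in each and 0 by edgeR's quasi-likelihood test and DESeq2. Without the DR GR-Con male library the counts were 10 and 1.

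The DR GR-Con female library stood apart for the synthesis enzymes. In astrocytes it was the lowest of 8 libraries for 16 of 19, where 20.1% of all genes were lowest in it. Fdft1 was at 19.9 CPM there, 0.181 of the median of the other 7 libraries, Hmgcs1 at 21.1 (0.22 of the median), Insig1 at 20.7 (0.24) and Sqle at 13.1 (0.256). Apoe at 271 and Abca1 at 455 were each 1.59 times the median, the highest of the 8 libraries. In oligodendrocytes of the same library 1 of 19 synthesis enzymes was lowest, with 18% of all genes. In neurons it was the lowest library for 13 of 19 enzymes in L6IT (8.97% of all genes), 12 in L6CT (10.5%), 11 in L4 (10.7%), 11 in Vip (8.67%), 9 in L5IT (8.31%) and 9 of 18 in L6b (8.51%), and for 3 to 6 in the other 6 neuron types. Counts were small for some of its astrocyte values, down to 16 UMIs for Ebp and 31 for Mvd. The median was 7199 UMIs per astrocyte nucleus there, against 4889 to 5307 in the other DR libraries. Neuron markers in these astrocytes summed to 555 CPM, against 359 to 401 in the other DR libraries, and oligodendrocyte markers to 90.2, the lowest of the 8 libraries. Their part in the result was not tested. Without this library 2 members were called in DR, and without the DR GR-Con male library, which leaves it as the lone control, 20 were.

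In a fit of all 8 libraries that held a rearing term, 6 members rose in GR-KO astrocytes and 0 fell, beside 4.8% of all genes called. Hmgcs1 rose by a log2 fold change of 1.18 (SE 0.29, adjusted p = 0.0026), Idi1 by 1.06 (SE 0.28, adjusted p = 0.0066) and Stard4 by 0.96 (SE 0.26, adjusted p = 0.0067). Mvd (1.00, SE 0.28), Fdps (1.01, SE 0.33) and Dhcr7 (0.58, SE 0.18) were the others. The quasi-likelihood test called 0. The count was 17 without the DR GR-Con male library, 3 without the NR GR-Con female or DR GR-KO female library, 2 without the DR GR-KO male library and 1 without the NR GR-Con male or NR GR-KO male library, and Hmgcs1 was called in all 8 of these fits.

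Oligodendrocytes of the same animals gave 0 called members of 34 tested in NR, in DR and over all libraries, where 1.53%, 0.00782% and 0.03% of all genes were called. At an unadjusted p under 0.05 there were 1, 4 and 6 members, and the quasi-likelihood test and DESeq2 called 0 in each. In DR the count was 4 without the DR GR-Con male and 1 without the DR GR-Con female library. Nr1h3 was too low to be tested. Hmgcs1 in oligodendrocytes was at 198 and 193 CPM in NR GR-Con and 186 and 157 in NR GR-KO. The synthesis median was -0.15 in NR and -0.22 in DR. Both GR-KO libraries lay below both controls for 9 of 19 synthesis enzymes in NR and 6 of 19 in DR, as they did for 12.5% and 14.5% of all genes. These lower values enter the differences between astrocytes and oligodendrocytes given next.

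Whether astrocytes and other cells differed in their genotype difference was tested in one fit with the library as a block, a test added after the first results were seen. In NR, the difference was larger in astrocytes than in oligodendrocytes for 14 members and smaller for 0, beside 3.0% of all genes called. Hmgcs1 differed by 1.32 (SE 0.18, adjusted p = 5.8e-11), Idi1 by 1.29 (SE 0.17, adjusted p = 1.5e-11) and Fdps by 1.24 (SE 0.18, adjusted p = 4e-09). The regulator Insig1 was among the 14 (0.88, SE 0.18). Against excitatory neurons, 10 members differed in NR, all with the larger difference in astrocytes (4.28% of all genes called). Without the NR GR-Con male library these counts fell to 5 and 2 (the quasi-likelihood test gave 9 and 10, beside 1.26% and 2.58% of all genes), and the second rose to 19 without the NR GR-Con female library and to 19 with a sex term.

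In DR the difference was larger in astrocytes than in oligodendrocytes for Hmgcs1 (1.70, SE 0.35) and Idi1 (1.94, SE 0.51), beside 0.376% of all genes, and larger than in excitatory neurons for 6 members, beside 0.895%. The quasi-likelihood test called 0 in both, and a sex term gave 12 and 10. Without the DR GR-Con male library the counts were 20 and 15, without the DR GR-Con female library 6 and 8, and without either DR GR-KO library 0 and 0. Over all libraries 16 members differed from oligodendrocytes (2.17% of all genes) and 13 from excitatory neurons (2.38%), all with the larger difference in astrocytes, and the quasi-likelihood test called 3 (0.721%) and 6 (1.01%). The first count fell to 7 without the NR GR-Con male, 9 without the NR GR-KO female, 10 without the DR GR-KO male and 8 without the DR GR-KO female library, and the second to 7 without the NR GR-Con male and 8 without the DR GR-KO female library.

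**Figure D4:**
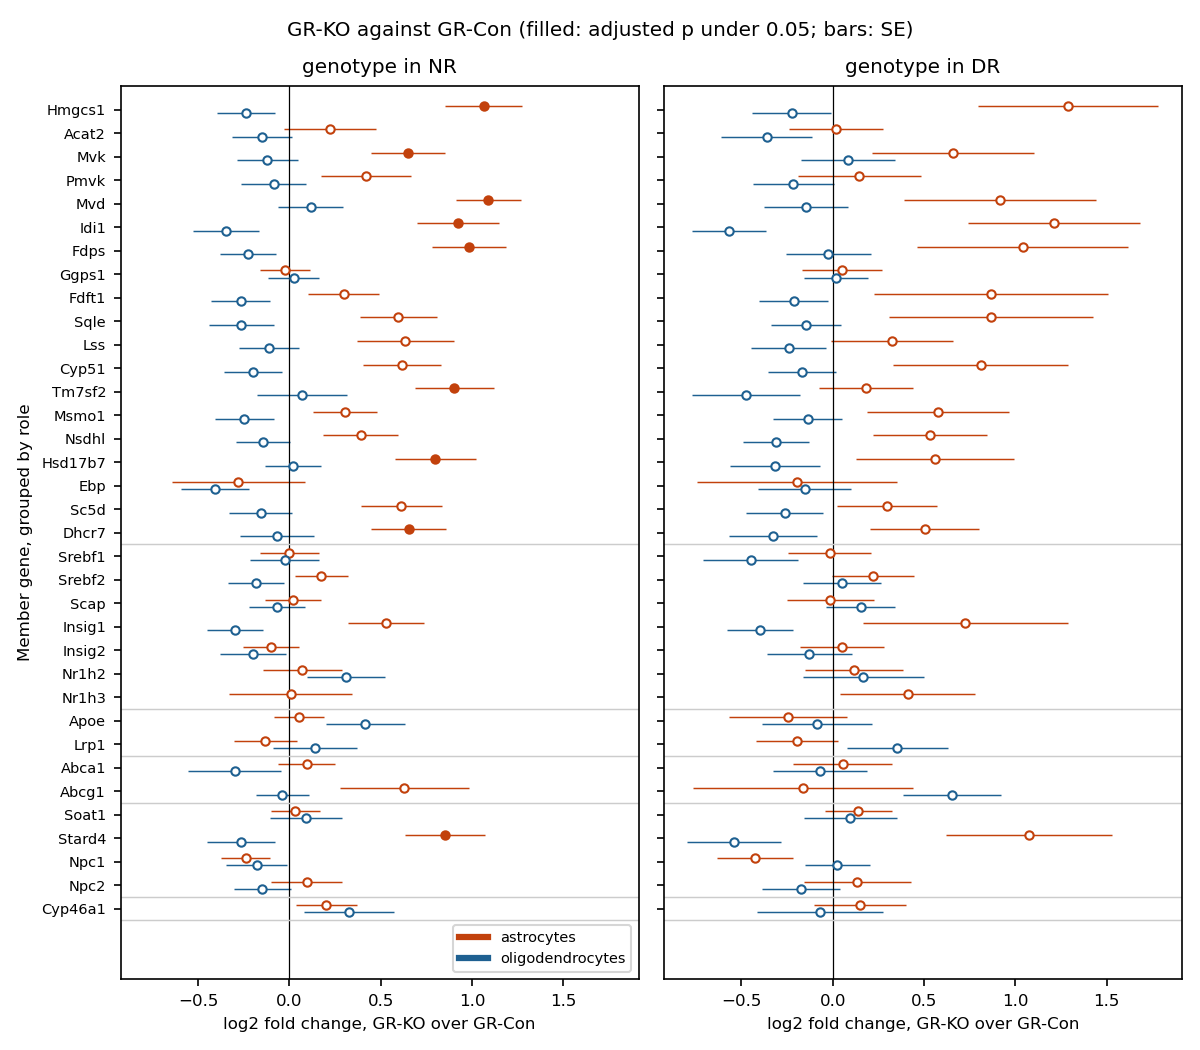
Log2 fold change, GR-KO over GR-Con, of the 35 members (y axis, by role) in astrocytes, and of 34 in oligodendrocytes, in NR and DR panels. Lines are 1 SE either side and filled points were called at an adjusted p under 0.05. In NR, 9 astrocyte points were filled, from 0.65 to 1.09, and 0 oligodendrocyte points, and in DR no point was filled and the astrocyte lines were longer.

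Among 45 other genes of lipid and sterol metabolism, 42 were tested in astrocytes, and the median genotype difference was 0.06 in NR. In NR GR-KO, 1 rose and 1 fell, beside 7.11% of all genes called. Gramd1c, a sterol transfer protein at membrane contacts, had 29.0 and 36.9 CPM in NR GR-Con and 55.7 and 52.9 in NR GR-KO (log2 fold change 0.66 with SE 0.16, adjusted p = 0.0014). Thrsp, a nuclear protein of lipogenic cells, had 63.5 and 76.6 and 37.6 and 36.6 (log2 fold change -0.98 with SE 0.15, adjusted p = 1.3e-08). Both moved in both libraries without overlap, as did 31.3% of all genes upward and 16.1% downward. Over all libraries 1 was called, beside 4.8% of all genes: Lcat, which esterifies cholesterol on lipoproteins, fell by 0.43 on the log2 scale. In DR, 0 of 42 were called, with 4 at an unadjusted p under 0.05 and 0 by the quasi-likelihood test.

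Dark rearing was compared with normal rearing next. In GR-KO astrocytes, 8 members, all synthesis enzymes, were lower in DR than in NR and 0 were higher, beside 2.85% of all genes called. This contrast shares the NR GR-KO libraries with the NR genotype contrast. Lss had 39.1 and 51.2 CPM in NR GR-KO and 21.6 and 18.8 in DR GR-KO (log2 fold change -1.10 with SE 0.18, adjusted p = 1.7e-06). Tm7sf2 had 24.7 and 28.3 and 14.1 and 13.8 (log2 fold change -0.86 with SE 0.18, adjusted p = 0.0004), and Mvk 26.4 and 26.8 and 16.1 and 15.4 (log2 fold change -0.68 with SE 0.17, adjusted p = 0.0049). In each of them both DR libraries lay below both NR libraries. Mvd had 18.7 and 15.6 CPM in DR GR-KO (log2 fold change -0.66 with SE 0.17, adjusted p = 0.0076) and Fdps 31.7 and 22.0 (log2 fold change -0.62 with SE 0.20, adjusted p = 0.049). Nsdhl went from 94.7 and 104 to 68.8 and 64.6 (log2 fold change -0.50 with SE 0.14, adjusted p = 0.013). The later enzymes Cyp51, from 156 and 124 to 89.9 and 98.0 CPM (-0.49, SE 0.15), and Sc5d, a sterol desaturase, from 50.3 and 46.3 to 31.3 and 34.1 (-0.48, SE 0.14), completed the list. Of 19 synthesis enzymes, 15 were lower in both DR libraries, as were 32.9% of all genes. Abca1, at 314 and 280.3 CPM in NR and 361 and 378 in DR, was not called (log2 fold change 0.39 with SE 0.14, adjusted p = 0.12). By the quasi-likelihood test 5 were called (1.79% of all genes). The count of 8 became 15 without the NR GR-KO female library, 1 without either DR GR-KO library, 14 with a sex term and 0 with all 4 groups in one fit. The median UMIs per astrocyte nucleus were 8662 and 12123.5 in NR GR-KO and 4889 and 5227 in DR GR-KO. In the same libraries the summed CPM of 8 neuron markers in astrocytes went from 633 and 652 to 396 and 401, and that of 8 oligodendrocyte markers from 214 and 168 to 125 and 114, while Vcan was at 70.4 and 88.9 in NR and 126 and 118 in DR. The 8 astrocyte markers summed to 12030 and 12360 in NR and 13180 and 14310 in DR. Slc1a2 was at 8124 and 8410 in NR and 9318 and 10070 in DR, and Aqp4 was also higher in both DR libraries. Ndrg2 and Acsbg1 were lower in both DR libraries, and Slc1a3, Gja1, Aldh1l1 and Atp1b2 overlapped. The part of these markers and of depth in the result was not tested.

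In GR-Con astrocytes 0 members were called for rearing, where 0.147% of all genes were, with 2 at an unadjusted p under 0.05 and 0 by the quasi-likelihood test or DESeq2. The synthesis median was -0.59 and 18 of 19 were negative, with the lowest values in the DR GR-Con female library. The groups overlapped for most of them: 1 of 19 was lower in both DR libraries than in both NR libraries and 1 was higher, against 15.9% and 16.7% of all genes. Hmgcs1 had 58.1 and 71.4 CPM in NR GR-Con and 65.0 and 21.1 in DR GR-Con, and Lss had 20.3 and 35.5 and 20.5 and 11.9. For both genes the DR GR-Con male library lay within the NR pair. Without the DR GR-Con male library 16 members were called. Over both genotypes Lss alone passed (0.917% of all genes called), at -0.94 (SE 0.23, adjusted p = 0.012). Of the 19 enzymes 1 was lower in every DR library than in every NR library, against 4.05% of all genes. The quasi-likelihood test called 0 members. The count was 8 without the DR GR-Con male library, 3 without the NR GR-Con male, 2 without the DR GR-Con female and 0 without the NR GR-Con female, NR GR-KO female, DR GR-KO male or DR GR-KO female library.

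In oligodendrocytes the rearing difference over both genotypes was called for 7 members, 6 lower and 1 higher in DR, beside 3.92% of all genes. Hmgcs1 had 198 and 193 CPM in NR GR-Con, 186 and 157 in NR GR-KO, 152 and 113 in DR GR-Con and 124 and 104 in DR GR-KO (log2 fold change -0.57 with SE 0.13, adjusted p = 0.00095). Every DR library lay below every NR library. Lss had 63.5 and 78.2 CPM in NR GR-Con, 65.5 and 69.5 in NR GR-KO, 49.3 and 56.8 in DR GR-Con and 51.3 and 38.5 in DR GR-KO (log2 fold change -0.50 with SE 0.13, adjusted p = 0.0049). Nsdhl had 92.7 and 89.2 CPM in NR GR-Con, 88.3 and 81.5 in NR GR-KO, 71.2 and 79.3 in DR GR-Con and 63.4 and 57.8 in DR GR-KO (log2 fold change -0.38 with SE 0.10, adjusted p = 0.0087). Their NR and DR values did not overlap either. Cyp51 had 158 and 176 CPM in NR GR-Con, 155 and 146 in NR GR-KO, 138 and 116 in DR GR-Con and 119 and 108 in DR GR-KO (log2 fold change -0.39 with SE 0.11, adjusted p = 0.014). Idi1 had 77.3 and 87.0 CPM in NR GR-Con, 74.9 and 58.0 in NR GR-KO, 56.5 and 74.8 in DR GR-Con and 45.6 and 42.7 in DR GR-KO (log2 fold change -0.45 with SE 0.13, adjusted p = 0.026), and here the DR GR-Con female library reached into the NR range. Stard4 had 23.4 and 26.1 CPM in NR GR-Con, 19.4 and 23 in NR GR-KO, 16.6 and 22.8 in DR GR-Con and 12.1 and 14.7 in DR GR-KO (log2 fold change -0.49 with SE 0.15, adjusted p = 0.038), with the same library overlapping. All 19 synthesis enzymes had negative estimates in GR-Con and in GR-KO, which share no library, where 61.3% of all genes had the same sign in both. Both DR libraries lay below both NR libraries for 15 of 19 in GR-Con and 17 of 19 in GR-KO, against 16.2% and 26.9% of all genes. Over all libraries 8 of 19 were lower in every DR library than in every NR library, as were 4.19% of all genes, and the synthesis median was -0.33. Markers moved with this difference. The summed CPM of 8 oligodendrocyte markers in oligodendrocytes was 18440 to 20880 in the NR libraries and 17290 to 18240 in DR, without overlap. That of 3 precursor cell markers was 104 to 216 in NR and 202 to 258 in DR, of which Pdgfra and Cspg4 stayed at 14.5 or below each, and that of 8 neuron markers 266 to 591 in NR and 252 to 408.5 in DR. That of 8 astrocyte markers was 161 to 201 in NR and 127 to 175 in DR. Their part in the result was not tested.

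The member that rose in oligodendrocytes was the efflux pump Abca1, with 49.6 and 26.5 CPM in NR GR-Con, 31.2 and 32.7 in NR GR-KO, 49.2 and 84.0 in DR GR-Con and 63.2 and 62.9 in DR GR-KO (log2 fold change 0.89 with SE 0.20, adjusted p = 0.00075). The NR GR-Con male library, at 49.6, reached the DR GR-Con male value of 49.2. Within GR-KO the change was 1.00 (SE 0.14, adjusted p = 3.9e-09) and it was called in all 4 leave-one-out fits. The count over both genotypes was 4 without the NR GR-Con female, 3 without the NR GR-KO male and 2 without the DR GR-KO female library, and 5 by the quasi-likelihood test (1.61% of all genes). Abca1 and Hmgcs1 were called in all 8 leave-one-out fits.

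Within genotype, GR-KO oligodendrocytes had 6 members lower and 2 higher in DR (3.79% of all genes called), and GR-Con oligodendrocytes had 0 called (0.615% of all genes), with 7 at an unadjusted p under 0.05, 0 by the quasi-likelihood test or DESeq2, and 9 without the DR GR-Con male library. The difference between the genotypes was itself tested by the interaction above and was called for 0 members. Lrp1 had 24.5 and 14.7 CPM in NR GR-Con, 21.2 and 23.8 in NR GR-KO, 19.8 and 35 in DR GR-Con and 35.3 and 34.0 in DR GR-KO, and rose in GR-KO (log2 fold change 0.64 with SE 0.17, adjusted p = 0.008). Its mean CPM was 266 in oligodendrocyte precursor cells, and the 3 precursor markers in GR-KO oligodendrocytes summed to 104 and 187 CPM in NR and 249.7 and 249 in DR, a change whose part in the Lrp1 rise was not tested. Apoe had 21.1 and 14.5 CPM in NR GR-Con, 27.3 and 22.1 in NR GR-KO, 12.3 and 20.3 in DR GR-Con and 12.9 and 17.4 in DR GR-KO, and fell in GR-KO (log2 fold change -0.68 with SE 0.21, adjusted p = 0.041). The 8 astrocyte markers in GR-KO oligodendrocytes summed to 201 and 195 CPM in NR and 147 and 175 in DR, and their part in the Apoe fall was not tested. Lss, Hmgcs1, Idi1, Nsdhl and Stard4 fell as well, by 0.47 to 0.63 on the log2 scale. In GR-KO oligodendrocytes the 8 neuron markers summed to 477 and 591 CPM in NR and 289 and 278 in DR. Median UMIs per oligodendrocyte nucleus were 11134 and 15571 in NR GR-KO and 7040 and 7308 in DR GR-KO. The part of these markers and of depth in the GR-KO changes was not tested. The count of 8 was 5 without the NR GR-KO male library, 1 without either DR GR-KO library and 1 by the quasi-likelihood test (0.604% of all genes).

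Of the other lipid genes, 40 were tested for rearing in oligodendrocytes and 42 in astrocytes, and all that were called were lower in DR. In oligodendrocytes 1 was called over both genotypes, beside 3.92% of all genes: Scd1, a fatty acid desaturase (-1.02, SE 0.27). Within GR-KO, Scd1 (-1.27) and Acss2, an acetyl-CoA synthetase (-0.61, SE 0.17), were called there, beside 3.79% of all genes. In astrocytes Acss2 (-1.09, SE 0.23) and Thrsp (-0.77, SE 0.19) were called over both genotypes, beside 0.917% of all genes. Within GR-KO astrocytes Acss2 (-1.17, SE 0.22) and Acly, which makes cytosolic acetyl-CoA (-0.49, SE 0.14), were called, beside 2.85% of all genes, and within GR-Con astrocytes Thrsp (-1.19), beside 0.147%. The rearing difference differed between astrocytes and oligodendrocytes for Lrp1 (-0.58, SE 0.15, beside 1.07% of all genes), and between astrocytes and excitatory neurons for Apoe (0.71, SE 0.14) and Lss (-0.84, SE 0.22, beside 2.07% of all genes), while the quasi-likelihood test called 0 of these. Without single libraries these counts were 0 to 4 and 1 to 5: the first was 0 without the NR GR-Con female, NR GR-KO male, DR GR-KO male or DR GR-KO female library, 2 without the NR GR-Con male or DR GR-Con female and 4 without the DR GR-Con male library, and the second was 1 without the NR GR-Con female, NR GR-KO female or either DR GR-KO library, 4 without the DR GR-Con female and 5 without the DR GR-Con male library.

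**Figure D5:**
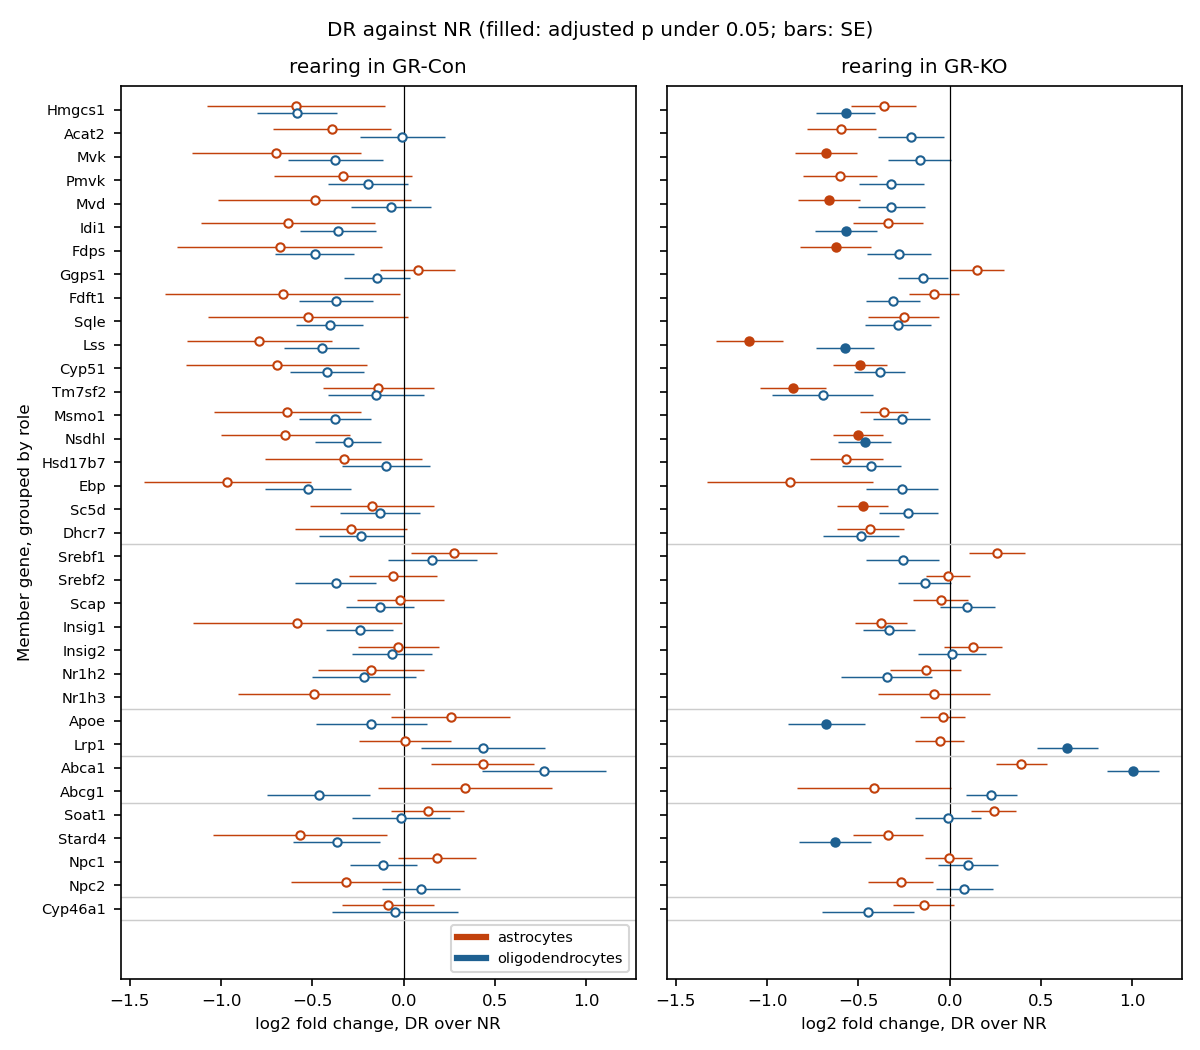
Log2 fold change, DR over NR, of the 35 members (y axis, by role) in astrocytes, and of 34 in oligodendrocytes, in GR-Con and GR-KO panels. Lines are 1 SE either side and filled points were called at an adjusted p under 0.05. In GR-KO, 8 astrocyte points were filled, all below 0, and 8 oligodendrocyte points, of which Abca1 at 1.00 and Lrp1 at 0.64 lay above 0.

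Neurons were fitted as 8 excitatory and 4 inhibitory types, and counts are pairs of a member and a type. For genotype, 0 pairs were called in excitatory and 0 in inhibitory types in NR, in DR and over all libraries. All-gene shares were 0.363%, 0.628% and 0.0766% of pairs in excitatory types and 0.147%, 0.345% and 0.0723% in inhibitory types. In NR 10 of 272 excitatory pairs had an unadjusted p under 0.05, and the quasi-likelihood test and DESeq2 called 0. The excitatory count was 8 without the NR GR-KO female library in NR, and in DR 12 without the DR GR-Con male and 25 without the DR GR-Con female library (4 of 270 at an unadjusted p under 0.05). The inhibitory count was at most 2 without any library. For rearing over both genotypes, 34 of 272 excitatory pairs were called, 30 lower and 4 higher in DR, beside 7.88% of all pairs, and 2 of 131 inhibitory pairs, both in Pvalb (Apoe lower and Abcg1 higher), beside 2.04%. The quasi-likelihood test called 16 (5.52% of all pairs) and 0. In GR-Con 7 of 273 excitatory pairs were lower and 0 higher (3.52% of all pairs), and in GR-KO 21 of 268 were lower and 3 higher (4.38%). Of the inhibitory pairs, 0 were called in GR-Con (0.798% of all pairs) and 3 in GR-KO (1.17%), which were Apoe and Abcg1 in Pvalb and Sqle in Sst. The quasi-likelihood test called 0 pairs within either genotype. The interaction was called for 0 pairs in either class (0.187% and 0.0629% of all pairs), with 4 and 2 at an unadjusted p under 0.05 and 0 by the quasi-likelihood test and DESeq2.

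Hmgcs1 fell in DR over both genotypes in L2/3, L4, L5PT and L5NP neurons, by 0.51 to 0.89 on the log2 scale. In L2/3 it had 18.1 and 16.6 CPM in NR GR-Con, 18 and 16.3 in NR GR-KO, 12.6 and 9.54 in DR GR-Con and 10.7 and 10.0 in DR GR-KO (log2 fold change -0.69 with SE 0.12, adjusted p = 9e-07). All 4 DR libraries lay below all 4 NR libraries. Idi1 fell in 4 types (L2/3, L4, L5IT and L5NP) and in L2/3 had 4.62 and 4.57 CPM in NR GR-Con, 4.72 and 4.27 in NR GR-KO, 3.95 and 3.19 in DR GR-Con and 2.62 and 2.86 in DR GR-KO (log2 fold change -0.54 with SE 0.15, adjusted p = 0.0032). Msmo1 fell in 4 types (L4, L5PT, L5NP and L6IT) and in L4 had 11.8 and 10.4 CPM in NR GR-Con, 12.5 and 8.72 in NR GR-KO, 8.50 and 5.15 in DR GR-Con and 6.82 and 6.86 in DR GR-KO (log2 fold change -0.63 with SE 0.19, adjusted p = 0.013). NR and DR libraries did not overlap in these cases either. The neuron genes named here were picked because they were called, and no all-gene share of such separation was computed for neurons. Stard4 fell in L2/3, L4 and L5NP and in L2/3 had 1.83 and 1.98 CPM in NR GR-Con, 1.48 and 1.81 in NR GR-KO, 1.43 and 0.861 in DR GR-Con and 0.740 and 0.702 in DR GR-KO (log2 fold change -0.96 with SE 0.23, adjusted p = 0.00058). L5NP neurons, a small deep-layer type, had the most enzymes called, 7 of 19, beside 2.44% of all genes called in that type, with a synthesis median of -0.62 and all 19 estimates negative. Sqle in L5NP went from 16.7 to 29.5 CPM in the NR libraries to 6.67 to 16.1 in DR (log2 fold change -1.25 with SE 0.25, adjusted p = 0.00019), without overlap. Msmo1, Hmgcs1, Idi1 and Sqle had higher levels in astrocytes than in excitatory neurons, and the summed CPM of 8 astrocyte markers in excitatory neurons was 546 to 577 in the NR libraries and 475 to 552 in the DR libraries. The part of astrocyte RNA in the neuron values was not tested. Among the enzymes 1 pair was higher in DR: Tm7sf2 in L4 had 11.6 and 10.5 CPM in NR GR-Con, 9.50 and 10.2 in NR GR-KO, 12.2 and 12.9 in DR GR-Con and 12.5 and 11.9 in DR GR-KO (log2 fold change 0.28 with SE 0.10, adjusted p = 0.044), without overlap, and was called in 1 of 8 leave-one-out fits. Abca1 was higher in L6CT (log2 fold change 0.72 with SE 0.20, adjusted p = 0.0072).

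Apoe was lower in DR in L2/3, L4, L5IT, L6CT and Pvalb neurons, by 0.59 to 0.74 on the log2 scale. Its CPM in L2/3 was 8.71 and 6.16 in NR GR-Con, 10.4 and 8.74 in NR GR-KO, 4.52 and 6.96 in DR GR-Con and 5.14 and 5.89 in DR GR-KO (log2 fold change -0.59 with SE 0.18, adjusted p = 0.013), and the DR GR-Con female library lay above the lowest NR library. Apoe levels in neurons were far below those of astrocytes, and the astrocyte markers given above moved the same way in part. Abcg1, the efflux pump that neurons express above astrocytes, was higher in DR in L2/3, L4 and Pvalb neurons, by 0.36 to 0.40. In L2/3 it had 25.4 and 23.8 CPM in NR GR-Con, 24.0 and 20.4 in NR GR-KO, 24.4 and 32.6 in DR GR-Con and 31.2 and 32.4 in DR GR-KO (log2 fold change 0.36 with SE 0.13, adjusted p = 0.04), and the DR GR-Con male library lay within the NR range. In L2/3 neurons of GR-Con, Srebf2 (-0.66, SE 0.20) and Insig1 (-0.58, SE 0.19) were among those lower in DR.

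The neuron counts moved with single libraries. Over both genotypes the 34 excitatory pairs became 64 without the DR GR-Con male library, 8 without the NR GR-Con male, 21 without the NR GR-KO male, 20 without the DR GR-Con female, 13 without the DR GR-KO male and 18 without the DR GR-KO female library. In GR-Con the 7 pairs became 79 without the DR GR-Con male, 12 without the DR GR-Con female, 1 without the NR GR-Con male and 4 without the NR GR-Con female library, and in GR-KO the 24 became 45, 13, 2 and 0 without the NR GR-KO female, NR GR-KO male, DR GR-KO female and DR GR-KO male library. In inhibitory types, the 0 pairs of GR-Con became 12 without the DR GR-Con male library, and the 3 of GR-KO became 10 without the NR GR-KO female, 1 without the DR GR-KO female and 0 without the DR GR-KO male library. A sex term gave 19 excitatory pairs in GR-Con and 6 inhibitory pairs over both genotypes. The 2 inhibitory pairs over both genotypes became 4 without the NR GR-Con female, NR GR-KO female or DR GR-Con male library, 1 without the NR GR-Con male and 0 without either DR GR-KO library. As these are sums over nuclei, fewer nuclei of a state and less RNA per nucleus cannot be told apart.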

How the data were processed

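UMI counts per gene and nucleus from 8 libraries were used, with the cell types and library names the authors deposited. Per the submitters' processing notes, reads were counted with Cell Ranger 8.0.1 against mm10, with a custom annotation that included eGFP, and handled in Seurat 5.3.0. The authors deposited raw counts after removing nuclei with very few or many genes, doublets (DoubletFinder) and clusters without markers, so cells lost there are not seen in any value here.

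Counts were summed per library and cell type and given as CPM. Group differences were fitted per type with edgeR 4.0.16 (likelihood ratio test, as in the study's methods; filterByExpr, TMM) in R 4.3.3, with Benjamini-Hochberg adjustment over all genes tested and a threshold of 0.05, in astrocytes, oligodendrocytes and the 12 neuron types with at least 10 nuclei in every library. Oligodendrocyte precursor cells also had that many and were not fitted. Cell classes were compared by edgeR's quasi-likelihood test with the library as a block, at an adjusted p under 0.05 and 2-fold. The quasi-likelihood test, DESeq2 1.42.0, other size factors, no filter, a sex term, all groups in one fit and leaving out each library were the alternatives. On simulated astrocyte data, 10.4% (genotype in NR) and 13.4% (genotype over all libraries) of likelihood ratio calls were false, above the threshold of 0.05. For the quasi-likelihood test, whose counts are given as an alternative, these shares were 6.25% and 5.88%, also above it. For DESeq2 they were 3.52% and 7.98%. The 1 male and 1 female library of a group were treated as replicates, so p-values measure the spread between these libraries. Library names gave the group and the sex, and no library was tied to a replicate number of the labels. The members and the lists were chosen with earlier results of these data known. By rule, values per library are given for Apoe, Lrp1, Abca1, Cyp46a1, Hmgcs1, Sqle, Srebf2, Insig1 and members called in astrocytes, oligodendrocytes or 3 or more neuron types. Levels are not compared between genes, and the sums over the synthesis enzymes are weighted to the enzymes with the highest CPM. Promoter windows came from RefSeq and gene positions from the GENCODE annotation of GRCm38. Counting error grows at low depth, and a member with few UMIs in a type is less certain.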

Additional observations from a re-analysis of the deposited data

Results flagged for a closer look

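Groups of 2 libraries are too small to test for an outlying sample. The results below were picked out because an effect differed between groups of cells or rearing conditions. They are given as values.

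In NR, the genotype difference (log2, GR-KO over GR-Con) differed between astrocytes and oligodendrocytes for 14 members: by 1.32 for Hmgcs1, 1.29 for Idi1, 1.24 for Fdps, 1.15 for Stard4, 1.01 for Mvd, 0.88 for Insig1, 0.87 for Sqle, 0.86 for Cyp51, 0.83 for Sc5d, 0.82 for Mvk, 0.80 for Lss, 0.78 for Hsd17b7, 0.61 for Fdft1 and 0.60 for Msmo1, each larger in astrocytes. Against excitatory neurons it differed by 1.11 for Mvd, 1.10 for Hmgcs1, 1.09 for Fdps, 1.07 for Stard4, 1.00 for Tm7sf2, 0.93 for Idi1, 0.76 for Hsd17b7, 0.76 for Dhcr7, 0.75 for Insig1 and 0.63 for Sqle.

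In DR it differed between astrocytes and oligodendrocytes by 1.94 for Idi1 and 1.70 for Hmgcs1, and between astrocytes and excitatory neurons by 1.64 for Idi1, 1.58 for Hmgcs1, 1.53 for Stard4, 1.22 for Sqle, 0.87 for Msmo1 and 0.76 for Nsdhl. The quasi-likelihood test called 0 of these DR differences.

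The rearing difference over all libraries (log2, DR over NR) was lower in astrocytes than in oligodendrocytes for Lrp1, by a difference of -0.58. Between astrocytes and excitatory neurons it differed by 0.71 for Apoe and -0.84 for Lss.

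Srebf1 in oligodendrocytes had 13.4 and 13.4 CPM in NR GR-Con, 13.4 and 13.6 in NR GR-KO, 13.3 and 17.3 in DR GR-Con and 10.3 and 11.9 in DR GR-KO. The mean difference, GR-KO minus GR-Con, was 0.15 CPM in NR, where both GR-KO libraries lay above both controls before rounding, and -4.22 CPM in DR, where both lay below. Picking it out involved no test of the difference, and the interaction test called 0 members in oligodendrocytes.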

How the results depend on the processing

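Counts below are called members, or pairs of a member and a type for neurons. Leaving out 1 library often left a lone sample in a group, which is then assumed to vary like the others, and the cause of each change was not tested. Counts for the genotype in NR (9 in astrocytes, 0 elsewhere) ranged over these fits from 3 to 12 in astrocytes, 0 to 8 in excitatory and 0 to 1 in inhibitory types, and in DR (0 in all) from 0 to 20 in astrocytes, 0 to 4 in oligodendrocytes, 0 to 25 in excitatory and 0 to 2 in inhibitory types. For genotype over all libraries the ranges were 1 to 17 in astrocytes (6) and 0 to 1 in excitatory and inhibitory types (0). For rearing in GR-Con they were 0 to 16 in astrocytes (0), 0 to 9 in oligodendrocytes (0), 1 to 79 in excitatory (7) and 0 to 12 in inhibitory types (0). For rearing in GR-KO they were 1 to 15 in astrocytes (8), 1 to 11 in oligodendrocytes (8), 0 to 45 in excitatory (24) and 0 to 10 in inhibitory types (3). For rearing over all libraries they were 0 to 8 in astrocytes (1), 2 to 9 in oligodendrocytes (7), 8 to 64 in excitatory (34) and 0 to 4 in inhibitory types (2). For the interaction they were 0 to 10 in astrocytes and 0 to 1 in oligodendrocytes and excitatory types, against 0. The differences between astrocytes and oligodendrocytes ranged over 5 to 18 (NR genotype, 14), 0 to 20 (DR genotype, 2), 7 to 17 (genotype over all libraries, 16) and 0 to 4 (rearing, 1), and those between astrocytes and excitatory neurons over 2 to 19 (10), 0 to 15 (6), 7 to 15 (13) and 1 to 5 (2). The cell class counts stayed at 10 to 13 for oligodendrocytes against astrocytes (13), 22 to 23 for astrocytes against excitatory neurons (23), 28 for oligodendrocytes against excitatory neurons (28) and 2 for inhibitory against excitatory neurons (2).

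The quasi-likelihood test gave 0 for rearing in GR-Con excitatory types, 5 in GR-KO astrocytes, 1 in GR-KO oligodendrocytes and 0 in GR-KO excitatory and inhibitory types, 0 for genotype and for rearing over all libraries in astrocytes, and 16 and 0 for rearing over all libraries in excitatory and inhibitory types. In the differences between classes it gave 9 (NR), 0 (DR), 3 (all libraries) and 0 (rearing) against oligodendrocytes, and 0 (DR), 6 (all libraries) and 0 (rearing) against excitatory neurons. DESeq2 gave 4 in GR-Con excitatory types and 5, 2, 14 and 0 in GR-KO astrocytes, oligodendrocytes, excitatory and inhibitory types. Without a filter GR-KO oligodendrocytes gave 5 and inhibitory types 1. A sex term gave 17 for genotype in NR astrocytes, 3 in DR astrocytes, 19 and 1 for rearing in GR-Con excitatory and inhibitory types, 14 in GR-KO astrocytes and 6 for rearing over all libraries in inhibitory types, and in the class differences 12 (DR, oligodendrocytes), 19 (NR, excitatory) and 10 (DR, excitatory). One fit of all 4 groups gave 1 for genotype in NR astrocytes, 2 in GR-Con excitatory types, and 0, 1 and 9 in GR-KO astrocytes, oligodendrocytes and excitatory types. With L2/3 neurons as the excitatory class, 1 member differed from inhibitory neurons.

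Directions turned only for small differences or per nucleus. As UMIs per nucleus, Lrp1 and Srebf2 in astrocytes against excitatory neurons were -0.43 and -0.37, and Cyp46a1, Hmgcs1 and Lrp1 in inhibitory against excitatory neurons -0.047, -0.065 and -0.0885. In the last comparison Cyp46a1 was -0.34 and Sqle 0.34 with L2/3 as the class, Hmgcs1 was -0.0057 and Lrp1 -0.0283 without a filter, and Lrp1 was -0.0043 with DESeq2 size factors and -0.0034 by DESeq2. Leaving out a library turned the sign in 5 cases, with values from -0.0102 to 0.0745 for Hmgcs1 and -0.0002 to 0.033 for Lrp1 there, from -0.0027 to 0.1955 for Abca1 and -0.2925 to 0.0422 for Lrp1 for genotype in NR astrocytes, and from -0.17 to 0.1452 for Insig1 in oligodendrocytes against astrocytes.

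No paired analysis was possible by replicate number because the library names give a sex and no such number. The sex term is a fit paired by sex, since each group held 1 male and 1 female library, and its counts are those above.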

Other observations

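Among the 45 other genes of lipid and sterol metabolism, 20 of 316 excitatory pairs of a gene and a type were called for rearing over both genotypes (6.33%, against 7.88% of all pairs), and 5 of 150 inhibitory pairs (3.33%, against 2.04%). Of the 42 tested in 3 or more neuron types, 4 were called in 3 or more (9.52%, against 7.44% of all genes). These shares lay near those of all genes, so the 4, chosen after their values were seen, are given as single genes and not as a result about the list. Their quasi-likelihood and leave-one-out results are not given here. Tmem97, the sigma-2 receptor, which binds NPC1 and follows sterol demand, was lower in DR in 4 types. The log2 fold change, DR over NR, was -0.99 (SE 0.16, adjusted p = 2.5e-08) in L2/3, -0.71 (SE 0.19, adjusted p = 0.0047) in L4, -0.59 (SE 0.19, adjusted p = 0.046) in L5IT and -0.82 (SE 0.25, adjusted p = 0.047) in L5NP neurons.

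Abca7, a lipid transporter related to Abca1, was lower in DR in L2/3 at -0.62 (SE 0.13, adjusted p = 4.4e-05), L4 at -0.38 (SE 0.10, adjusted p = 0.002), Pvalb at -0.52 (SE 0.16, adjusted p = 0.03) and Sst neurons at -0.75 (SE 0.20, adjusted p = 0.026). Apod, which encodes the lipid carrier apolipoprotein D, was lower in L2/3 at -1.28 (SE 0.28, adjusted p = 0.00013), L6IT at -1.40 (SE 0.46, adjusted p = 0.042), L6CT at -1.15 (SE 0.33, adjusted p = 0.007) and Pvalb neurons at -1.70 (SE 0.42, adjusted p = 0.0055). In L6b, L5NP, Vip and Lamp5 neurons its mean was only 0.637, 0.749, 1.02 and 1.83 CPM, from 17 to 41 UMIs over 8 libraries. Its highest value in L5NP, Vip and Lamp5 was in the NR GR-KO male library, at 2.17, 3.69 and 2.69 CPM. In L6b it was in the NR GR-KO female library, at 1.88. Cyp7b1, an oxysterol hydroxylase, was higher in DR in L2/3 at 0.55 (SE 0.17, adjusted p = 0.011), L6CT at 0.54 (SE 0.12, adjusted p = 0.00018) and Vip neurons at 0.62 (SE 0.16, adjusted p = 0.022). Its means in L5NP neurons went the other way, with overlapping libraries. They were 174.6 CPM in NR GR-Con and 166.3 in NR GR-KO, against 138.3 in DR GR-Con and 146.5 in DR GR-KO.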
